A study of Mus musculus with 34 samples.

Results

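Insulin leaves the β cell by regulated exocytosis, and 7 genes of its machinery were examined, out of 21887 protein-coding genes. They were chosen by name: Snap25, Stx1a and Vamp2, the SNARE proteins that fuse granule and plasma membrane, Syt7, a calcium sensor, Rab3a and Rab27a, granule GTPases, and Unc13a, a priming factor. A peak belonged to a gene when that gene's body was the nearest protein-coding one, within 50 kb, in mm10. The 10 peak lists held 82 such peaks, which merged by overlap into 38 sites. No peak beyond 50 kb had one of the 7 genes as its nearest, and the most distant peak within it lay 43413 bp from Snap25.

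The data were ChIP-seq, which recovers DNA bound by a protein, from Beta-TC6 cells, a mouse β-cell line. Antibodies were directed at p65 (RELA), an NF-κB subunit that activates transcription, at PDX1, a homeodomain factor needed for β-cell identity, and at SIN3A, around which a corepressor complex with histone deacetylases assembles. For p65 and PDX1 there were 4 groups each: wild-type and Bmal1-/- cells, which lack a clock activator, each without and with the inflammatory cytokine IL-1β, with 3 samples per group. The 2 SIN3A groups were wild-type cells given control siRNA or siRNA against Pdx1, with 2 samples each, and 6 inputs complete the 34 samples. All cells had received a 1 h pulse of 10 µM forskolin to synchronise them, and the labels do not say whether samples of a group were separate cultures or the knockout cells 1 clone. How much IL-1β was used, and for how long, is not given in the sources used here. Expression is not among the values used, so the cell type, the loss of Bmal1 and the knockdown of Pdx1 could not be checked. For the PDX1 groups with IL-1β the labels conflict: the antibody field names p65 and the sample titles PDX1. The titles were used. The highest p65 peak of the 7 genes, near Syt7, had no overlapping peak in either PDX1 list with IL-1β. Over the whole lists 33.8% of p65 peaks in wild-type IL-1β cells overlapped a PDX1 peak of the same cells. Of PDX1 peaks in wild-type control cells 60.1% overlapped one. Which label is right was not tested.

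In regulated exocytosis, syntaxin-1A (Stx1a) and SNAP-25 on the plasma membrane zip together with VAMP2 on the granule. RAB3A and RAB27A help granules reach and dock at the membrane, MUNC13-1 (Unc13a) opens syntaxin for SNARE assembly, and calcium binding to synaptotagmins such as SYT7 triggers fusion. In β cells this chain turns glucose-driven calcium entry into insulin release.

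The values below are the authors' tag counts per peak, scaled to 10 M tags, from lists of 31.0 to 63.9 M tags. The files hold 1 list per group and no value per sample, so there is no test between conditions. Brackets give exact Poisson 95% intervals of the recovered whole tags, which cover counting error only. Lists differed in length from 173 to 40028 peaks, in window from 206 to 479 bp and in their lowest listed count from 2.49 to 5.33, so a missing peak means only that none passed the authors' thresholds. No difference in binding is read from counts of different lists. Positions inside a gene are given from the end with the lower coordinate, since the gene table has no strand.

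With each peak given to its nearest gene, the genes differed in which antibodies had peaks, and Snap25, Syt7 and Rab27a had peaks of every antibody. SIN3A peaks belonged to all 7 genes, counting both lists. p65 peaks were found at Snap25, Syt7, Rab27a and Unc13a, and PDX1 peaks at Snap25, Syt7 and Rab27a. Vamp2, Rab3a and Stx1a had SIN3A peaks alone, though p65 and PDX1 peaks nearer to other genes stood within 50 kb of Vamp2 and Rab3a. With IL-1β, 4 of 7 genes had a p65 peak in wild-type cells, where 46.1% of all genes did, and 4 of 7 in knockout cells, where 33.0% did. Without IL-1β none had one, against 9.01% of genes in wild-type and 0.676% in knockout cells. For PDX1, 3 of 7 genes had a peak in each list, against 42.0% of all genes in wild-type control, 41.4% in wild-type IL-1β, 16.5% in knockout control and 16.1% in knockout IL-1β cells. For SIN3A, 6 of 7 genes had a peak with control siRNA, against 48.1% of all genes, and 7 of 7 with Pdx1 siRNA, against 50.5%. With so few genes these shares are counts, not a result about the set.

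**Figure D1:**
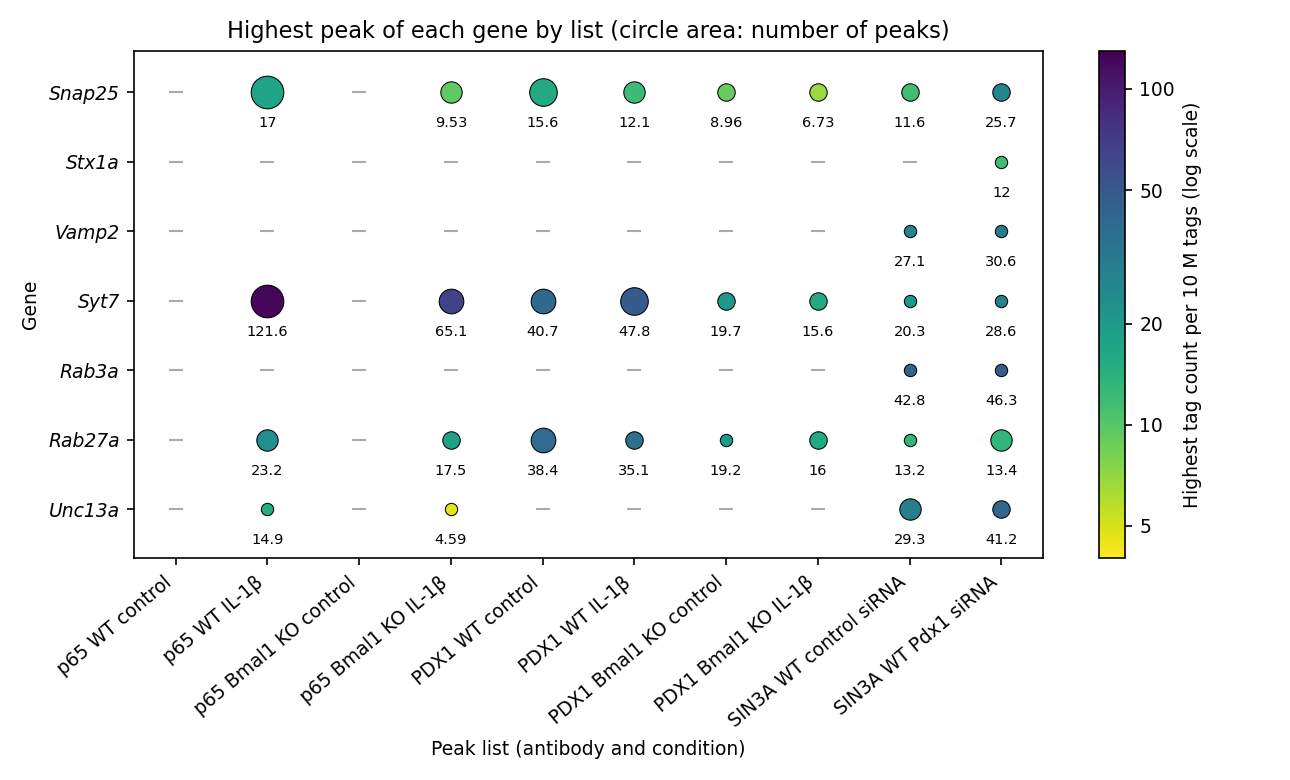
Each column is 1 peak list and each row 1 gene; the number and the colour (log scale) give the gene's highest tag count per 10 M tags, the circle's area its number of peaks, and a dash no peak (WT, wild type; KO, knockout). Both p65 control lists are empty for all 7 genes, and Stx1a has 1 entry, for SIN3A with Pdx1 siRNA.

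The amount of genome nearest to each gene differed. Snap25 had 164.7 kb, at percentile 90.7 of all genes, and Syt7 107.4 kb, at percentile 81.2. Rab27a had 55.7 kb, Stx1a 34.2 kb, Vamp2 12.8 kb and Rab3a 5.7 kb, against a median of 45.8 kb, and Unc13a stood at percentile 52.9. Genes with more such genome had peaks more often: for p65 in wild-type IL-1β cells 24.0% of the genes with the least such genome, 45.2% of those in the middle and 69.2% of those with the most, in 3 equal classes, and for PDX1 in wild-type control cells 15.4%, 39.5% and 71.1%. For SIN3A with control siRNA these were 43.2%, 48.2% and 52.8%. Snap25 and Syt7 belong to the upper class and Vamp2 and Rab3a to the lower one. The part of this length in the gene counts was not tested.

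Peaks at gene ends were mostly of SIN3A. Of its 9 peaks at the 7 genes with control siRNA 6 lay within 1 kb of an end of a gene body, where 68.6% of all SIN3A peaks near genes did, and with Pdx1 siRNA 9 of 11 did, against 66.3%. For p65 in wild-type IL-1β cells 1 of 18 did, at Syt7, against 12.8% of all, and in knockout IL-1β cells 1 of 10, also at Syt7, against 17.1%. For PDX1 1 of 13 did in wild-type control cells, 342 bp outside Rab27a, against 5.34%. In its other lists none of 10 did in wild-type IL-1β, of 5 in knockout control and of 6 in knockout IL-1β cells. Over all such peaks the shares were 4.62%, 3.49% and 3.73%. RefSeq promoter windows (GRCm38.p6, 250 bases before to 50 after an annotated start) matched 4 of the 7 genes, with 6 windows. For each gene the one nearest to its SIN3A peaks is shown, 5′ to 3′ on the gene's strand, with each CpG in capitals. Snap25, Vamp2 and Syt7 were not matched.

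Stx1a, chr5:135023232-135023531, plus strand: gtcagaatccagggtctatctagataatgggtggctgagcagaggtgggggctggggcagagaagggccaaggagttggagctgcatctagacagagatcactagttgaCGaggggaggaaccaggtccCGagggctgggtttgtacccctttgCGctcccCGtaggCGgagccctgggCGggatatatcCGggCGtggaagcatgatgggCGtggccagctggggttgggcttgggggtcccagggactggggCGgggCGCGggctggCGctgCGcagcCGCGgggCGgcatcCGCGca
Rab3a, chr8:70754852-70755151, plus strand: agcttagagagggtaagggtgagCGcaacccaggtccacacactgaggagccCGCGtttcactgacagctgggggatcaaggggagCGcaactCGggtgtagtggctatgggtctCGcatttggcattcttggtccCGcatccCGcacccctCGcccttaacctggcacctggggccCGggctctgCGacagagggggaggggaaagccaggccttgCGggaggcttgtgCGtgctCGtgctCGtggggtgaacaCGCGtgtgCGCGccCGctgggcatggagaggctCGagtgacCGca
Rab27a, chr9:73044560-73044859, plus strand: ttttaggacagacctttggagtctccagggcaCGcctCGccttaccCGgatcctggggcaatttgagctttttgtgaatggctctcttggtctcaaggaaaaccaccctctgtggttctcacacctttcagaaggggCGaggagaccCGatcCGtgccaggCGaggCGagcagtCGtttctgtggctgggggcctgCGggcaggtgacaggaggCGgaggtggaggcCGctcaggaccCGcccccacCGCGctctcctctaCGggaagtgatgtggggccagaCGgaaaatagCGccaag
Unc13a, chr8:71671708-71672007, minus strand: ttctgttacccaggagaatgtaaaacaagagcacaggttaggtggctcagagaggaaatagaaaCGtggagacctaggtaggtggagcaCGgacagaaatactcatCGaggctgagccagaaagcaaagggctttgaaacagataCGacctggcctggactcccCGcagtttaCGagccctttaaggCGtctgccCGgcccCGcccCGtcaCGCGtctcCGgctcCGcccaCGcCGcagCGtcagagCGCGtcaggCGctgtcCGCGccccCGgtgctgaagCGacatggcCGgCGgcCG

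The 4 windows shown held more CpG than the median window. Those of Rab3a and Rab27a were picked as nearest to SIN3A peaks, while Stx1a and Unc13a had no other window. The Stx1a and Unc13a windows overlapped no SIN3A peak of the control siRNA list, with gaps of 13327 and 39 bp. The Unc13a window held 27 CpG, the Rab3a window 22, the Stx1a window 19 and the Rab27a window 18, against a median of 7 over 32817 windows and of 25 over the 5915 windows with a SIN3A peak of the control siRNA list. Their GC content was 61.3%, 65.3%, 66.3% and 61.3%, against medians of 52.7% and 63.7%. The 2 windows not shown were one of Rab3a, with 18 CpG, and one of Rab27a, at chr9:73063898-73064197, with 6 CpG and 51.3% GC. None of the 4 shown held the κB letters GGANTTTCC, GGAAATTCC or GGGNNTTCC, the homeodomain letters TAATTA or the E-box letters CACGTG on either strand. Of all windows 7.0%, 5.3% and 7.15% did, and of the 5915 with a SIN3A peak 8.72%, 1.56% and 13.2%. Of the other 2, the Rab27a window held CACGTG, and the Rab3a window held none of the letters. Overlapping matches were counted separately unless they shared both ends. A match is a description of letters, and no match says only that they are not in the window.

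Among the SNAREs, Stx1a (chromosome 5, 135023482 to 135051100) encodes the plasma membrane syntaxin and had 1 peak in all 10 lists, of SIN3A with Pdx1 siRNA. It had 12.0 tags (8.66 to 16.2) at percentile 24.2 of its list, 10.32-fold over input. Its centre lay 305 bp after the annotated start and its near edge 152 bp past the end of the window shown. With control siRNA the nearest SIN3A peak to that window was 13327 bp away, at Abhd11. None of the 8 p65 and PDX1 lists held a peak within 50 kb of Stx1a, also when peaks nearer to another gene were counted.

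Vamp2 (chromosome 11, 69088528 to 69092381) encodes the granule SNARE, in a body of 3.9 kb. SIN3A had 27.1 tags (21.6 to 33.5) there with control siRNA and 30.6 (25.1 to 37.0) with Pdx1 siRNA, 0.1 and 0.2 kb from the lower end, with overlapping intervals. The 2 peaks overlapped by 98 bp. No p65 or PDX1 peak was nearest to Vamp2, but peaks of both stood close by. A p65 peak with 131.1 tags in wild-type and 30.9 in knockout IL-1β cells lay 2383 and 2373 bp from Vamp2 and 138 and 124 bp from Per1, a clock repressor gene, and so belongs to Per1. Other p65 peaks stood at Tmem107, with 48.9 and 22.8 tags, and at Borcs6, with 61.1 and 18.9 tags in the same order. PDX1 peaks stood at Tmem107 too, with 20.3 tags in wild-type control, 30.3 in wild-type IL-1β and 20 in knockout control cells. Near Aurkb, 46.3 to 46.5 kb from Vamp2, PDX1 had 53.7, 63.5, 24.1 and 18.2 tags in wild-type control, wild-type IL-1β, knockout control and knockout IL-1β cells.

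Snap25 (chromosome 2, 136713439 to 136782428) encodes the other plasma membrane SNARE and had 13 sites, 7 of them in more than 1 list and 4 with more than 1 antibody. In wild-type IL-1β cells its 7 p65 peaks had 4.48 to 17.0 tags, around the median of 10.3 of the whole list. Of genes with a peak in that list 6.24% had as many peaks. The highest, 17.0 tags (13.7 to 20.9), lay 1016 bp outside the lower end of the gene body.

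Of the peaks outside the Snap25 body, all overlapped the long noncoding RNA gene Gm32659, as the annotation gives it. The outermost p65 site, 43413 bp from the body, had 11.6 tags (8.88 to 14.8) in wild-type and 3.88 (2.43 to 5.88) in knockout IL-1β cells, with intervals apart and windows that overlapped by 82 bp. The adjoining site carried PDX1, with 15.6 tags (12.6 to 19.1) in wild-type control, 12.1 (9.55 to 15.2) in wild-type IL-1β and 6.73 (4.87 to 9.06) in knockout IL-1β cells, and p65 with 7.66 in wild-type IL-1β cells. It was absent from the knockout control list, whose lowest count was 5.05.

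Inside Snap25, at 40.1 kb, p65 had 13.6 tags (10.7 to 17.1) in wild-type and 9.53 (7.16 to 12.4) in knockout IL-1β cells. These windows overlapped by 25 bp, and PDX1 peaks of 4.82, 6.48 and 6.42 tags lay beside or over them. SIN3A had a peak at Snap25's lower end, 0.2 kb inside, with Pdx1 siRNA only: 25.7 tags (20.7 to 31.6), 6.32-fold over input, at percentile 60.6. Its control siRNA list held none there, while a peak 34456 bp outside was in both lists, with 11.0 tags (7.58 to 15.3) and 9.72 (6.73 to 13.6). Another, 33668 bp outside, was in the control siRNA list only, with 11.6 tags (8.12 to 16.1), and overlapped a p65 peak of 10.5 tags in wild-type IL-1β cells.

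**Figure D2:**
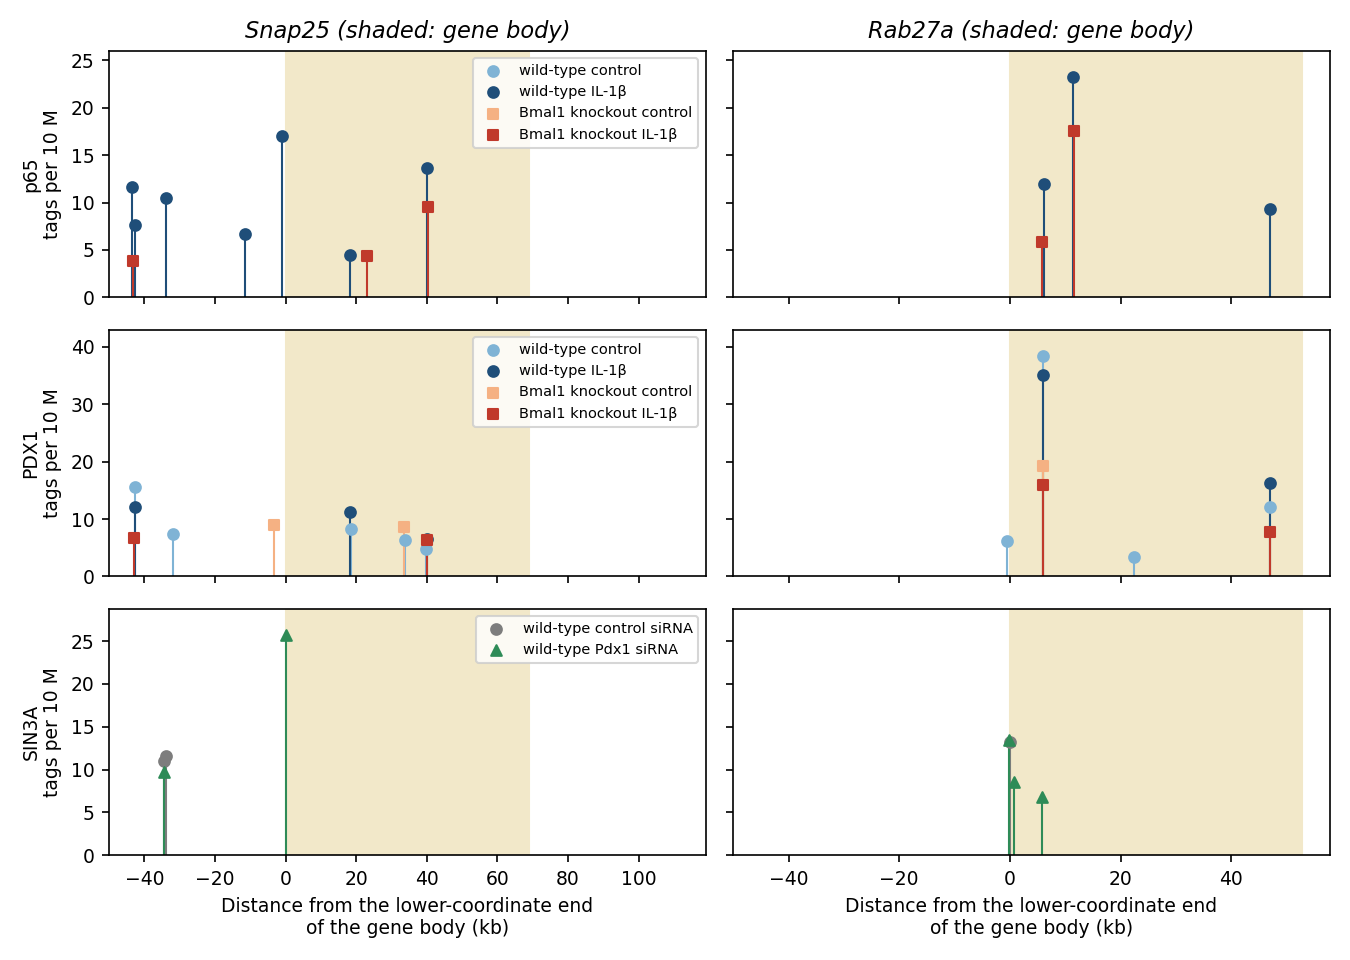
Peaks at Snap25 and Rab27a by position, in kb from the lower end of the gene body, 1 row of panels per antibody, with height as tags per 10 M tags and colour and marker for the condition. Snap25 shows many low peaks on both sides of its lower end, and Rab27a a PDX1 peak at 6.0 kb in all 4 PDX1 lists.

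Syt7 (chromosome 19, 10388802 to 10453181) encodes a synaptotagmin that senses calcium with high affinity. It had 11 sites and the highest count of the 7 genes in both p65 lists with IL-1β and in 3 of 4 PDX1 lists. In the PDX1 list of knockout IL-1β cells Rab27a was higher, with 16.0 tags against 15.6. Its top p65 site, at chr19:10356840-10357046, lay 31756 bp outside the lower end of the body. It had 121.6 tags (112.0 to 131.0) in wild-type IL-1β cells, rank 505 of 31389, 52.25-fold over input, and 65.1 tags (58.7 to 72.1) in knockout IL-1β cells, rank 338 of 16162, 41.56-fold over input. The intervals did not overlap, but the ranks place the peak near the top of both lists, at percentiles 98.4 and 97.9. Neither p65 control list held a peak there.

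A pair of PDX1 sites stood closer to the gene. The nearer, 24610 bp from the body in the wild-type control list and within the long noncoding RNA gene Gm30263, had 40.7 tags (35.8 to 46.1) in wild-type control, 47.8 (42.5 to 53.5) in wild-type IL-1β and 19.7 (16.4 to 23.6) in knockout control cells, and p65 had 36.6 (31.7 to 42.1) in wild-type IL-1β cells. The knockout IL-1β list had no PDX1 peak there. The other, 29387 bp from the body in the wild-type control list, had 14.5 PDX1 tags (11.6 to 17.8) in wild-type control, 28.7 (24.6 to 33.2) in wild-type IL-1β and 15.6 (12.7 to 19) in knockout IL-1β cells. The second value is 1.98 times the first, the highest such ratio at the 7 genes, and it was the only one of 8 wild-type pairs whose intervals did not overlap.

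At 12.5 kb inside Syt7, PDX1 had a peak in all 4 of its lists: 21.9 tags (18.4 to 26) in wild-type control, 25.4 (21.6 to 29.7) in wild-type IL-1β, 19.4 (16.1 to 23.2) in knockout control and 15.0 (12.2 to 18.3) in knockout IL-1β cells. Near the lower end, at 0.4 kb, p65 and SIN3A peaks overlapped. There p65 had 22.2 tags (18.4 to 26.6) in wild-type and 8.47 (6.25 to 11.2) in knockout IL-1β cells, and SIN3A 20.3 (15.6 to 26) with control siRNA and 28.6 (23.3 to 34.8) with Pdx1 siRNA. The SIN3A intervals overlapped, and the p65 intervals did not. The remaining Syt7 sites were lower. For p65, one had 16.3 tags (13.0 to 20) in wild-type IL-1β cells 8523 bp outside the body, and another 10.5 (7.9 to 13.6) in wild-type and 6.0 (4.16 to 8.39) in knockout IL-1β cells 42.8 kb inside it. In wild-type IL-1β cells p65 also had 5.6 tags 15387 bp outside and 6.54 tags 55.5 kb inside, and in knockout IL-1β cells 8.3 tags (6.1 to 11.0) at the PDX1 site at 12.5 kb, where the wild-type list had none. For PDX1, a site at 13.3 kb had 13.1 tags in both wild-type lists and none in knockout cells, and one at 26.8 kb had 4.53 in wild-type IL-1β cells.

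**Figure D3:**
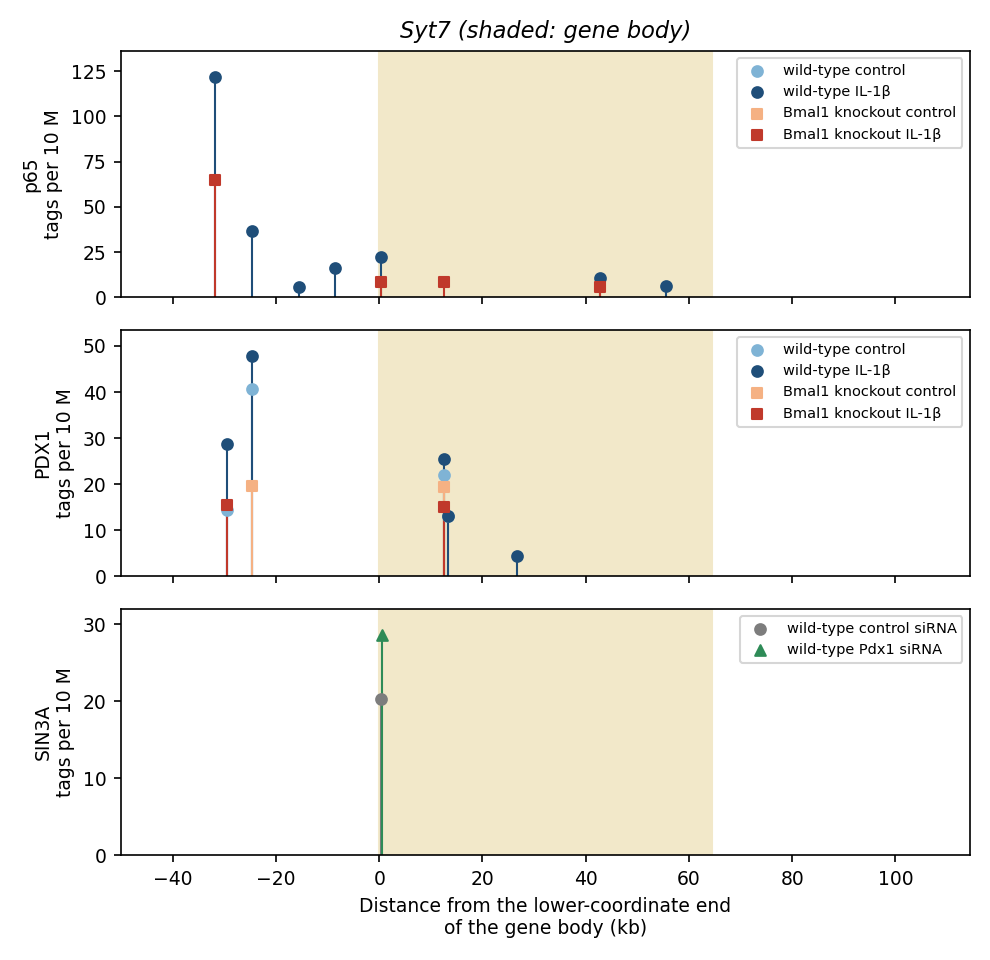
Peaks at Syt7 by position, in kb from the lower end of the gene body (shaded), 1 panel per antibody, with height as tags per 10 M tags and colour and marker for the condition. The p65 peak outside the gene reaches 121.6 in wild-type and 65.1 in knockout IL-1β cells, and the PDX1 peak at 12.5 kb is in all 4 PDX1 lists.

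Of the granule GTPases, Rab3a (chromosome 8, 70754703 to 70758608) had SIN3A peaks alone, and the highest of the 7 genes. They had 42.8 tags (35.9 to 50.8) with control siRNA and 46.3 (39.5 to 54.0) with Pdx1 siRNA, at percentiles 91.7 and 90.7 of their lists, and reached into the window shown by 7 and 23 bases. A p65 peak lay 1747 bp from Rab3a with 37.0 tags in wild-type IL-1β cells and 1731 bp away with 11.5 in knockout IL-1β cells. It was slightly nearer to Pde4c, a cAMP phosphodiesterase gene, at 1564 and 1556 bp, and so belongs to Pde4c. A PDX1 peak of 10.2 tags in wild-type IL-1β cells overlapped it, 1707 bp from Rab3a, and belongs to Pde4c too. In these cells PDX1 also had 8.42 tags inside Pde4c, 9.0 kb from Rab3a, and 11.8 near Mast3, 46.7 kb away. In wild-type control cells it had 6.15 tags inside Pde4c, 19.1 kb away. Another p65 peak, inside Pde4c and 19258 bp from Rab3a in the wild-type control list, was in all 4 p65 lists, with 39.1 tags in wild-type control, 34.4 in knockout control, 19.4 in wild-type IL-1β and 13.4 in knockout IL-1β cells.

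Rab27a (chromosome 9, 73044810 to 73097623) had 7 sites and the only one of the 38 that carried all 3 antibodies, at 6.0 kb. PDX1 had 38.4 tags (33.6 to 43.7) in wild-type control, 35.1 (30.6 to 40.1) in wild-type IL-1β, 19.2 (15.9 to 23.0) in knockout control and 16.0 (13.0 to 19.4) in knockout IL-1β cells. The wild-type values lay above the knockout ones, with intervals apart in both states. At the same site p65 had 12.0 tags in wild-type and 5.83 in knockout IL-1β cells, in windows that did not overlap each other. SIN3A had 6.86 tags with Pdx1 siRNA only, at percentile 7.13 of its list. The SIN3A window overlapped the knockout p65 window but not the wild-type one. The site was built by chaining overlaps across lists. Farther in, at 47.0 kb, PDX1 had 12.1 tags (9.51 to 15.3) in wild-type control, 16.2 (13.2 to 19.7) in wild-type IL-1β and 7.82 (5.81 to 10.3) in knockout IL-1β cells, and p65 9.34 (6.93 to 12.3) in wild-type IL-1β cells.

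The highest p65 site of Rab27a was at 11.5 kb, with 23.2 tags (19.3 to 27.6) in wild-type and 17.5 (14.2 to 21.3) in knockout IL-1β cells and overlapping intervals. SIN3A peaks covered 111 bases of the Rab27a window with control siRNA and 209 with Pdx1 siRNA. They had 13.2 tags (9.48 to 17.9) and 13.4 (9.87 to 17.9), at percentiles 28.0 and 28.1, and overlapped each other by 36 bp. A further SIN3A peak, 0.7 kb inside, was in the Pdx1 siRNA list only, with 8.58 tags (5.79 to 12.2), and PDX1 peaks of 6.15 tags 342 bp outside the body and of 3.32 tags 22.4 kb inside it were in the wild-type control list only.

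Unc13a (chromosome 8, 71624125 to 71671774) encodes the priming factor MUNC13-1 and had 4 sites, none with PDX1. Its p65 site, 4.1 kb from the lower end, had 14.9 tags (11.8 to 18.6) in wild-type and 4.59 (3.0 to 6.73) in knockout IL-1β cells, a ratio of 0.308, the lowest of the p65 pairs at the 7 genes. These windows overlapped by 94 bp, and the fold over input was 4.99 in wild-type and 7.32 in knockout IL-1β cells. At the other end, beside the annotated start, SIN3A had a pair of sites. The one nearer to the start had 29.3 tags (23.6 to 36.0) with control siRNA and 38.6 (32.4 to 45.7) with Pdx1 siRNA, 39 and 15 bp from the window shown. The other had 29.0 (23.3 to 35.6) and 41.2 (34.7 to 48.5), and the intervals overlapped at both. The fourth site, 5.5 kb from the lower end, was a SIN3A peak with control siRNA only, with 7.73 tags (4.95 to 11.5).

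**Figure D4:**
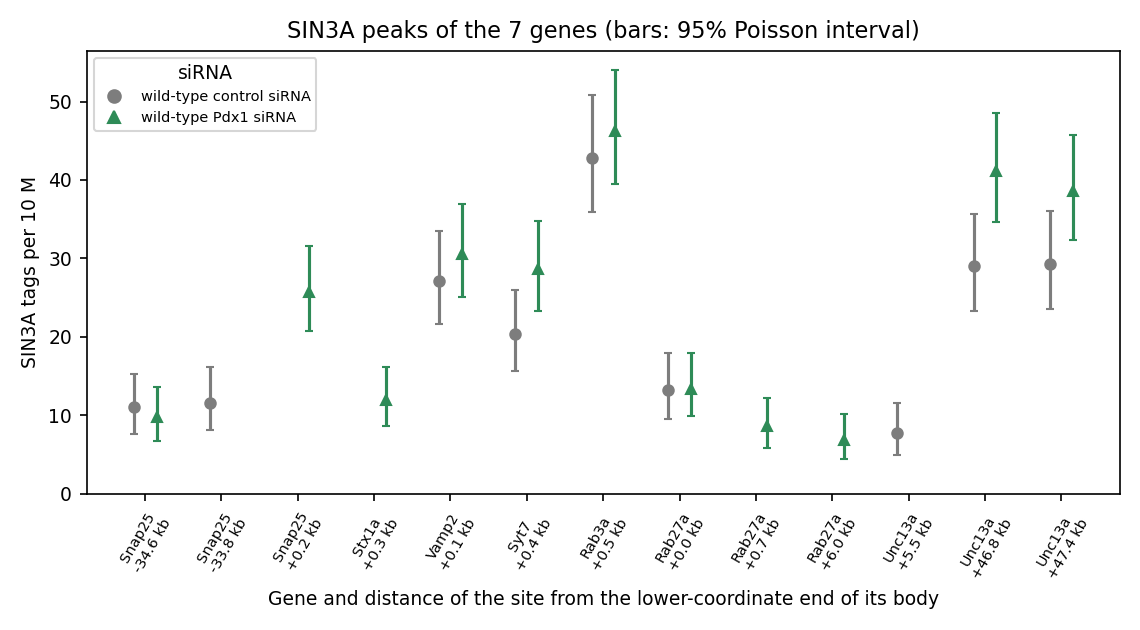
SIN3A tags per 10 M tags at each SIN3A site of the 7 genes with control and Pdx1 siRNA, with exact Poisson 95% intervals of the tag count; sites in 1 list have 1 point. At the 7 sites with overlapping peaks in both lists the intervals overlap. A peak with Pdx1 siRNA only is at 4 sites (Snap25 at 0.2 kb, Stx1a and 2 of Rab27a), and with control siRNA only at 2 (Snap25 and Unc13a). Over the whole list 73.5% of control siRNA peaks overlapped a Pdx1 siRNA peak. The Pdx1 siRNA list was longer, with 14653 peaks against 13109, and its own share was not computed.

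Comparing the lists, none of the 7 genes shared a p65 peak between IL-1β and control, as neither control list held one for them. The counts of 0 of 4 in wild-type and 0 of 4 in knockout cells restate this. Over all genes with a p65 peak with IL-1β, 10.5% in wild-type and 1.36% in knockout cells shared one with control. Between wild-type and knockout IL-1β cells 4 of 4 genes shared a p65 peak, against 60.5% of all genes with one, and 7 of 18 peaks did, against 40.7% of all peaks. At those 7 the knockout count was 0.308 to 0.754 times the wild-type one, with a median of 0.535. Over all 12781 shared peaks the median was 0.518, with quartiles of 0.403 and 0.678, and 4 of the 7 lay above that median. Without IL-1β there was nothing to compare at the 7 genes, and 6.65% of all genes with a p65 peak in wild-type control cells shared one with knockout cells.

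For PDX1 in wild-type cells 3 of 3 genes shared a peak between control and IL-1β, against 74.6% of all genes with one, and the median ratio with IL-1β was 1.17 at 8 shared peaks, against 1.09 over all 24051. In knockout cells 2 of 3 did, Syt7 and Rab27a, against 65.8%. Between wild-type and knockout control cells 3 of 3 shared a PDX1 peak, against 36.4%, and with IL-1β 3 of 3, against 35.7%. By peaks, wild-type cells shared 8 of 13 between control and IL-1β, against 60.1% of all PDX1 peaks. Knockout cells shared 2 of 5, against 58.8%. Between genotypes 4 of 13 wild-type control peaks were shared, against 19.1%, and 6 of 10 with IL-1β, against 18.7%. The knockout counts had a median of 0.693 times the wild-type ones at 4 shared peaks without IL-1β and 0.55 at 6 with it, against 0.799 and 0.576 over all shared peaks. None of the 11 PDX1 peaks in knockout cells reached 8-fold over input, their folds being 4.12 to 7.21, while 30.4% and 34.1% of all peaks of these lists did.

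**Figure D5:**
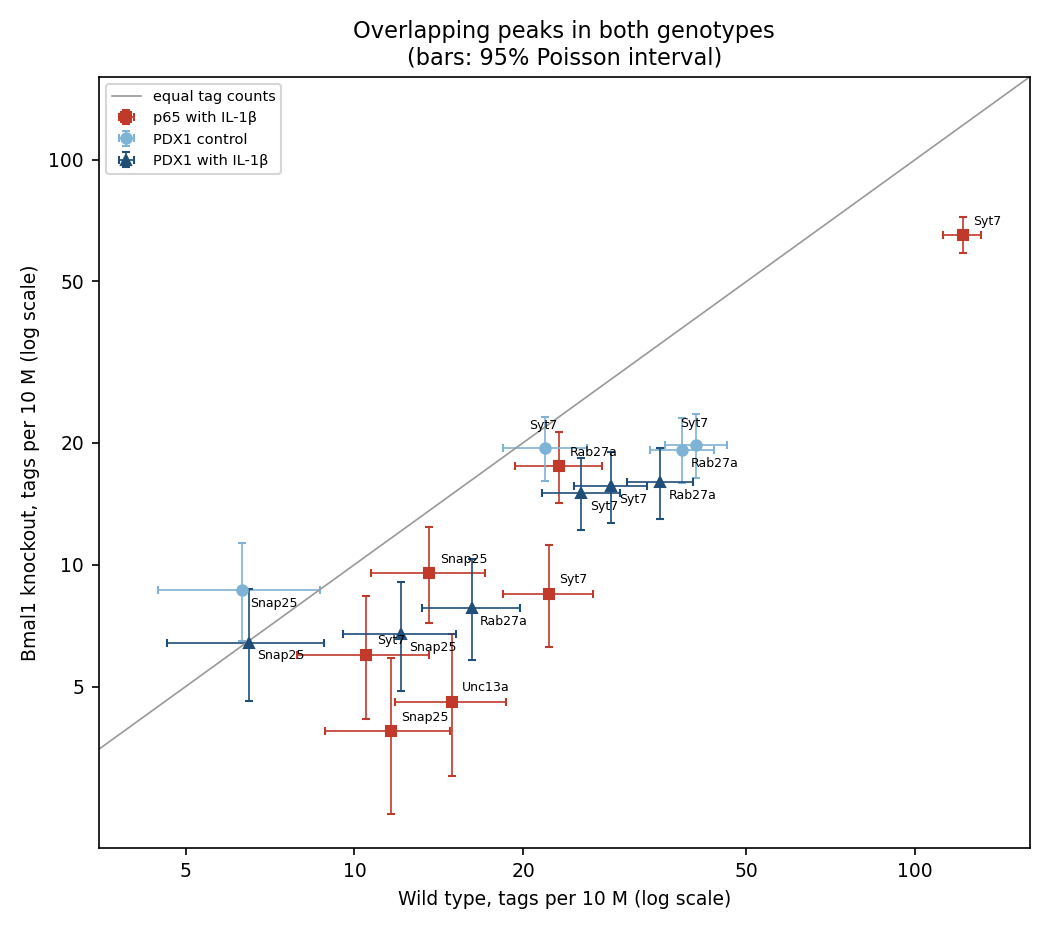
Each point is an overlapping pair of peaks at 1 of the 7 genes, with tags per 10 M tags in wild-type cells on the x axis and in Bmal1 knockout cells on the y axis, both on log scales, with exact Poisson 95% intervals. All p65 pairs lie under the line of equal counts, and 1 PDX1 pair, at Snap25, lies above it.

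For SIN3A 6 of 6 genes shared a peak between the siRNAs, against 82.9% of all genes with one. By peaks 7 of 9 were shared, against 73.5% of all. At 7 shared peaks the count with Pdx1 siRNA was 0.884 to 1.42 times that with control siRNA, with a median of 1.13, against 1.15 over all 9632. Between antibodies, p65 and PDX1 shared a peak at 3 of 4 genes in wild-type IL-1β cells, against 43.8%, and at 2 of 4 in knockout IL-1β cells, against 26.5%. By peaks the shares lay near those of the whole lists. Of p65 peaks 6 of 18 in wild-type IL-1β cells overlapped a PDX1 peak, against 33.8% of all p65 peaks. In knockout IL-1β cells 2 of 10 did, against 21.9%. SIN3A with control siRNA shared a peak with p65 at 2 of 6 genes, Snap25 and Syt7, against 14.7%, and with PDX1 in wild-type control cells at 0 of 6, against 7.34%. By SIN3A peaks these were 2 of 9, against 12.5%, and 0 of 9, against 6.83%.

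Beyond these 7, a list of 75 other genes of regulated exocytosis gave the wider pathway. With a p65 peak in wild-type IL-1β cells there were 54 of 75 (72.0%), and 40 (53.3%) in knockout IL-1β cells, against the 46.1% and 33.0% of all genes. Without IL-1β there were 14 (18.7%) and 0, against 9.01% and 0.676%. PDX1 peaks were at 53 (70.7%) and 51 (68.0%) in the wild-type control and IL-1β lists, against 42.0% and 41.4%, and at 30 (40%) and 31 (41.3%) in knockout cells, against 16.5% and 16.1%. SIN3A peaks were at 54 (72.0%) with control siRNA and 51 (68.0%) with Pdx1 siRNA, against 48.1% and 50.5%. These 75 genes had a median of 81.1 kb of nearest genome, against 45.8 kb over all genes, and 51 lay above that median. The part of this length in the shares was not tested. The highest p65 counts in wild-type IL-1β cells were 190.0 at Cadps, a priming factor, 82.4 at Rapgef4, a cAMP sensor, and 80.7 at Ptprn2, a granule membrane protein. For PDX1 in wild-type control cells they were 96.7 at Pclo and 67.8 at Erc2, active zone scaffolds, and 72.9 at Stxbp5l, an inhibitor of SNARE assembly, 40783 bp outside its body. For SIN3A with control siRNA they were 40.6 at Vamp3 and 38.0 at Snap23, both SNAREs, and 36.7 at Unc13b, a paralog of Unc13a.

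The pattern over the 10 lists, as the percentile of each gene's highest peak in its list and 0 without one, was set against all other genes by Euclidean distance. The nearest gene to Syt7 was Tbc1d1 at 12.5 (median distance over all genes 208.0), to Rab27a Tjp1 at 13.8 (187.0), to Snap25 Ndufs1 at 22.1 (136.0) and to Unc13a Cbarp at 10.3 (133.0). To Rab3a it was Mrm3 at 0.418 and to Vamp2 H3c3 at 0.525, with 2 genes at that distance. Stx1a, with 1 peak in 1 list, had 6 genes at a distance of 0.0, of which Cyren is first by name. Each nearest gene was picked as the smallest distance over all genes, so its place below the median was fixed in advance. Ndufs1 had peaks in 6 lists against 8 for Snap25, and Cbarp in 3 against 4 for Unc13a.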

How the data were processed

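ChIP-seq peak lists of 10 groups were used. Per the submitters' processing notes, the tools include Bowtie2 and HOMER and the build is mm10, without versions or roles. Per the file headers, the authors called peaks with HOMER findPeaks (factor style, 100 bp fragments), with an FDR of 0.001, a p-value of 0.0001 over input, and folds of 4 over input and over the 10 kb around. Pooling of replicates is not stated in the headers, and the p65 and PDX1 lists of a condition share an input. The signal is the authors' tag count per 10 M tags, per the file headers. The fold over input is the authors' deposited ratio, the peak score is the authors' deposited position-adjusted count, and the focus ratio is a deposited fraction of tags.

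Peaks were assigned to the nearest of 21887 RefSeq gene bodies of GRCm38.p6, the assembly of mm10, with ties counted for each gene. Peaks of different lists were shared when they overlapped by at least 1 bp. From 95.8% to 100% of the tag counts were within 0.3 of a whole number of tags, which gave the Poisson intervals (scipy 1.17.1, Python 3.11.15). Assignment and overlap were tested on simulated peaks. The members, the pathway list and the rules were chosen with earlier results of these data known. Named beside the 7 genes are the 3 pathway genes with the highest count in each of 3 lists, the gene most alike in pattern to each member and the genes nearest to peaks by a member. Exons and introns were not used here, since no genome came with the files.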

Additional observations from a re-analysis of the deposited data

How the results depend on the processing

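Counts were recomputed under 92 alternatives fixed with the design. Of these 68 stayed within 1.5 times the value given and 24 did not, and the cause was not tested. Part of the 68 could not have moved, so the 68 do not measure how stable the counts are. The p65 control lists held no peak of the genes examined, so stricter filters and sharing with these lists could only give 0. For SIN3A with control siRNA and PDX1 in wild-type control cells, with no shared peak, stricter sharing rules could only give 0. A cut to the length of the shortest list also left that list unchanged. Counting every peak within 50 kb, nearest or not, gave 2 genes with a p65 peak in wild-type control (Syt7 and Rab3a) and 1 in knockout control cells (Rab3a). With IL-1β it gave 6 genes with a p65 peak in either genotype, where Vamp2 and Rab3a were added. For PDX1 it gave 6 genes in both wild-type lists, with Vamp2, Rab3a and Unc13a added, and 5 in knockout IL-1β cells. That Vamp2 and Rab3a had SIN3A peaks alone thus depends on the nearest-gene rule. Keeping the strongest peaks, as many as the shortest list of 173, gave 0 genes for p65 with IL-1β in either genotype. That shortest list had a peak at only 0.676% of all genes. The share of all genes was not computed under any alternative, so these counts have no background beside them. Requiring 8-fold over input gave 0 genes for PDX1 in both knockout lists and 4 for SIN3A with Pdx1 siRNA. Shared p65 peaks between wild-type and knockout IL-1β cells fell to 2 genes with a reciprocal overlap of 50%, 2 with centres within 100 bp and 2 at 8-fold over input. At 8-fold, PDX1 sharing was 0 in knockout cells between states and 0 between genotypes without and with IL-1β, and SIN3A sharing between siRNAs 2. Reciprocal overlap gave 0 for PDX1 in control cells between genotypes. For p65 and PDX1 in knockout IL-1β cells the count of 2 became 1 with reciprocal overlap, 1 with centres within 100 bp, 0 at 8-fold and 0 with lists of equal length. For SIN3A and p65 it became 0 at 8-fold and 1 with equal lengths. No paired analysis was possible because the lists hold no value per replicate, and leaving out replicates was not run for the same reason. Depth, window and thresholds differ between lists, so a missing peak does not show absence of binding.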
